A study of Drosophila melanogaster with 3 samples.

Results

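Aminoacyl-tRNA synthetases join each amino acid to its transfer RNA, the step that fixes the genetic code before the ribosome reads it. Animals keep separate sets for the cytoplasm and for the mitochondrion, encoded largely by different nuclear genes, and a few genes serve both compartments. The genes were taken by symbol from the Ensembl annotation of the dm6 genome, as 1 or 2 amino-acid abbreviations followed by RS, with the suffix -m for the mitochondrial enzymes. This gave 33 of 13945 protein-coding genes, 18 cytoplasmic and 15 mitochondrial. The class follows the suffix alone, so a gene that serves both compartments is counted as cytoplasmic. For 12 amino acids there was a pair of symbols that differed only by the suffix. No symbol with the suffix -m matched for glutamine, glycine, histidine, lysine or threonine. GluProRS is 1 gene for a protein with 2 synthetase activities, and it was not paired with GluRS-m or ProRS-m. The genes of the cytoplasmic phenylalanine enzyme, alpha-PheRS and beta-PheRS, fall outside the naming rule and were treated as related genes.

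The data came from chromatin immunoprecipitation followed by sequencing on whole prepupae, pooled male and female and of unknown age. The animals were Drosophila melanogaster of 1 stable transgenic line with CG11762 (ouib, a zinc-finger gene) fused to GFP at the C terminus, and the antibody was against GFP. There were 3 biological replicates of 1 group and no second condition, so nothing was compared between conditions. The promoter that drives the fusion is not stated in the labels. Control libraries entered the authors' peak calls and were not analysed here, so binding of Ouib and nonspecific signal cannot be told apart.

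Each replicate's deposited list and the pooled list held 30000 peaks, weak ones included. The optimal list held the 5048 strongest pooled peaks, those that passed the authors' test of agreement between replicates. For comparison, each replicate was also reduced to its 5048 best peaks, and signal is given as a ratio to their median, on which the weakest of them stood between 0.599 and 0.636. Depth is unknown, since the lists hold no read counts. A gene was counted when a summit, the highest point of a peak, lay within 1000 bp of any of its transcription start sites (TSSs).

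A larger share of cytoplasmic than of mitochondrial synthetase genes had an optimal summit near a start, while in that list all synthetase genes together were at the level of the genome. In the optimal list 6 of 33 genes (18.2%) had a summit, against 18.0% of all protein-coding genes. These were SerRS, IleRS, GluProRS, AspRS and ArgRS, or 5 of 18 cytoplasmic genes (27.8%), and LeuRS-m, or 1 of 15 mitochondrial genes (6.67%). The difference of 21.1 percentage points rests on few genes, which are not replicates, and was not tested.

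The order of both classes was the same in each replicate taken alone. Among the best peaks of replicate 1, 7 of 18 cytoplasmic and 1 of 15 mitochondrial genes had a summit, beside 18.4% of all genes. Replicate 2 gave the same counts, beside 18.0% of all genes, and replicate 3 gave 5 and 2, beside 17.8%. The mean share was 35.2% ± 6.42 (SD, n = 3) for cytoplasmic and 8.89% ± 3.85 for mitochondrial genes. It was 23.2% ± 1.75 for all synthetase genes together and 18.1% ± 0.301 for all protein-coding genes. With every peak counted, 15, 11 and 11 cytoplasmic genes and 4, 5 and 7 mitochondrial genes had a summit in replicates 1, 2 and 3, where all genes stood at 52.8%, 48.8% and 52.0%. In the pooled list it was 9 cytoplasmic and 4 mitochondrial genes, or 39.4% of all synthetase genes, with all genes at 47.9%.

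**Figure D1:**
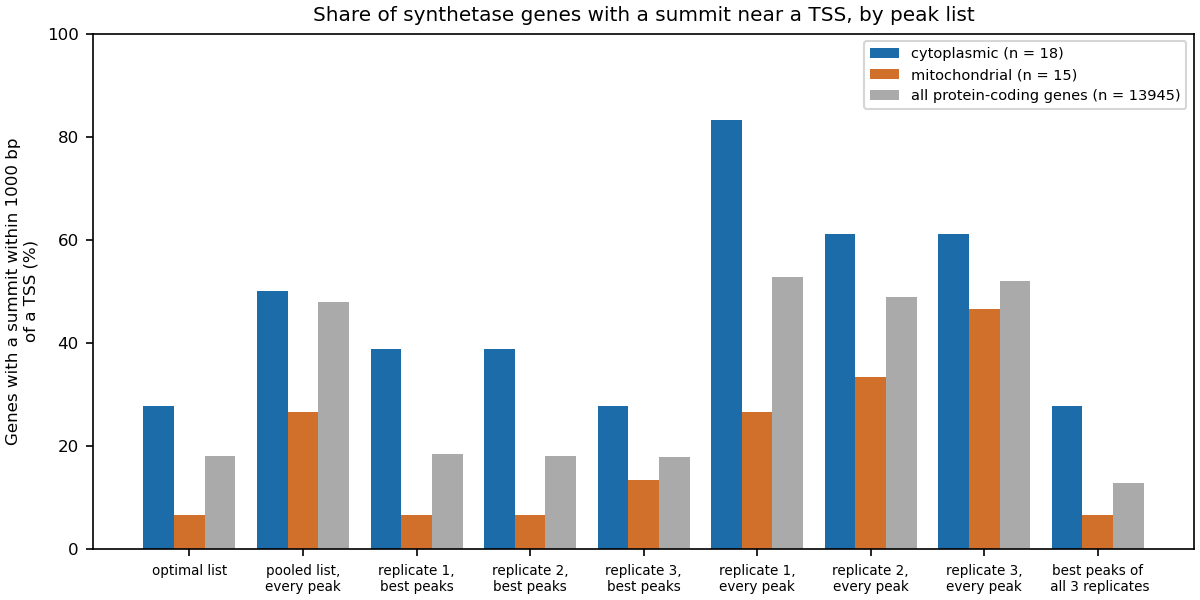
Share of genes (%) with a summit within 1000 bp of a TSS in each deposited or reduced peak list, for cytoplasmic (n = 18), mitochondrial (n = 15) and all protein-coding genes (n = 13945). The cytoplasmic bar stands above the mitochondrial bar in every list, by 14.4 to 56.7 percentage points.

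Sequences are shown for 5 of the genes with an optimal summit or a best peak in all 3 replicates, to place the motifs described further on against the summits. For ArgRS, GluProRS, IleRS and ThrRS they are the 250 bp before the start, which held the summit, and for LeuRS-m the 200 bp around the summit. Each is read 5′ to 3′ on the strand of the gene from the NCBI copy of dm6. Capitals mark TATCGATA (the replication element bound by Dref and BEAF-32) and TATAAAA (the letters of the TATA box, matched at any distance from the start). They also mark CACTG, a core of the 8-mers most frequent at all optimal summits relative to their flanks. Matches on either strand are marked.
IleRS (chr3L:22288415-22288664, plus strand): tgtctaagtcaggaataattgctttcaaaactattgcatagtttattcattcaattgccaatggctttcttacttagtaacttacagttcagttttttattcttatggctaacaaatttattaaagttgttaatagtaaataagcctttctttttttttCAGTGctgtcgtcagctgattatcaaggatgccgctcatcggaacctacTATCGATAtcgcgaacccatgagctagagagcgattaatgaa
ArgRS (chrX:15844146-15844395, minus strand): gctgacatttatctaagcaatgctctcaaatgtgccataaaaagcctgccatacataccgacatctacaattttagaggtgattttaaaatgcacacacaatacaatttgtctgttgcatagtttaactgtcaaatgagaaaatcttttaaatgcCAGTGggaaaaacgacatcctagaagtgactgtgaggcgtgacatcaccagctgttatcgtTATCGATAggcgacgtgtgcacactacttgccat
GluProRS (chr3R:23958392-23958641, minus strand): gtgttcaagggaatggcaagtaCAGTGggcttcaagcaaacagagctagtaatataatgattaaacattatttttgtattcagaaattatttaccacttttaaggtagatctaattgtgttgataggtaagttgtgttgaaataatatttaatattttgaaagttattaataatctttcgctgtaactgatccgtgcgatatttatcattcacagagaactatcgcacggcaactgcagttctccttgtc
ThrRS (chr2L:12103501-12103750, plus strand): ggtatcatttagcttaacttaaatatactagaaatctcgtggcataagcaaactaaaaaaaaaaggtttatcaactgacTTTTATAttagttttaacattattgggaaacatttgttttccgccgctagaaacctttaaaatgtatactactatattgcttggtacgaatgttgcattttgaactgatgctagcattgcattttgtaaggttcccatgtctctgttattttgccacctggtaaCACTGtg
LeuRS-m (chr3L:4824823-4825022, plus strand): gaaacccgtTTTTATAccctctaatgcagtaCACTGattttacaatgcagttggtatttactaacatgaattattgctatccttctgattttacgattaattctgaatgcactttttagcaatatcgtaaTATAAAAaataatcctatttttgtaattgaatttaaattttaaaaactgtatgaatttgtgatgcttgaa

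IleRS and SerRS carried the strongest peaks at cytoplasmic synthetase starts. IleRS (FBgn0027086, chromosome 3L from 22288665 to 22292810, plus strand), which charges isoleucine, had its optimal summit 184 bp upstream of its start, in the intergenic stretch shared with Hem, which starts the other way 470 bp from it and encodes a subunit of the actin-regulating WAVE complex. The peak ran from 22288283 to 22288678. The signal of IleRS was 2.03, 2.23 and 2.20 times the best-peak median in replicates 1, 2 and 3 (2.15 ± 0.110, SD, n = 3), at ranks 766, 638 and 654. Its replicates were close together, and the 3 summits lay within 53 bp of each other.

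SerRS (FBgn0031497, chromosome 2L from 3035493 to 3037403, minus strand), which charges serine, had an optimal summit 14 bp downstream of its start, in its 5' UTR, on a peak from 3037191 to 3037586. CG17260 starts on the other strand 8 bp away from a SerRS start, so that 1 peak covered both starts. The signal was 1.84, 2.66 and 2.27 times the median (2.25 ± 0.409, SD, n = 3), lowest in replicate 1. IleRS and SerRS were not separated by this spread.

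GluProRS (FBgn0005674, chromosome 3R from 23952136 to 23958391, minus strand) had its optimal summit 162 bp upstream, on an intergenic peak from 23958355 to 23958750. The summit was nearer, at 98 bp, to the start of AP-1sigma, a clathrin adaptor subunit gene that starts the other way. The signal was 1.11, 1.43 and 0.856 times the median (1.13 ± 0.288, SD, n = 3). Replicate 3 was lowest but still among the best peaks, at rank 3228.

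ArgRS (FBgn0027093, chromosome X from 15841769 to 15844145, minus strand), the arginine enzyme, had an intergenic optimal summit 125 bp upstream, on a peak from 15844072 to 15844467, with CG8578 starting the other way 331 bp from it. The signal was 0.817, 0.771 and 0.542 times the median (0.710 ± 0.147, SD, n = 3). Replicate 3, at rank 6110, fell outside the best peaks, so that ArgRS was among them in 2 of 3 replicates.

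AspRS (FBgn0002069, chromosome 2R from 12877004 to 12883168, plus strand), the aspartate enzyme, was counted through a start inside the gene. It had 2 optimal summits, 308 and 106 bp upstream of that start, in a stretch that AspRS shares with Nmda1, a gene on the other strand. Starts of Nmda1 were 178 and 52 bp from these summits. The strongest summit near that start stood at 1.03, 0.868 and 0.780 times the median in replicates 1, 2 and 3 (0.894 ± 0.129, SD, n = 3). Its place changed between replicates, from 326 to 105 bp upstream, so these values need not come from 1 site. With the 5' end of each gene as its only start, AspRS was not counted.

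ThrRS in all 3 replicates and AsnRS in replicates 1 and 2 had best peaks that the pooled list does not hold. ThrRS (FBgn0027081, chromosome 2L from 12103751 to 12107170, plus strand), the threonine enzyme, had 1 summit in each replicate, 207, 162 and 191 bp upstream of its start. The signal was 0.849, 1.37 and 1.50 times the median (1.24 ± 0.345, SD, n = 3), at ranks 3275, 1534 and 1332, among the best peaks of all 3. Its values overlapped those of GluProRS and AspRS and lay above those of ArgRS, yet no pooled peak lay within 1000 bp and 37.9 kb separated it from the nearest optimal summit.

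For best peaks shared by all 3 replicates, as at ThrRS, such a loss was rare. Of the 3380 best peaks of replicate 1 that overlapped a best peak of both others, 10 (0.296%) overlapped no pooled peak, and 12 of 1778 genes with a best-peak summit in all 3 replicates had no pooled summit. ThrRS was the only synthetase gene among these 12. By that count, with the pooled list left aside, 6 synthetase genes were counted (SerRS, IleRS, GluProRS, AspRS, ThrRS and LeuRS-m), ThrRS taking the place of ArgRS, beside 12.8% of all genes. AsnRS (FBgn0086443, chromosome 2L from 19129469 to 19131954, minus strand), the asparagine enzyme, stood at 0.837 times the median in replicate 1 and 0.980 in replicate 2, with summits 115 and 142 bp upstream, and had no peak there in replicate 3 or the pool. How often a best peak shared by only 2 replicates is missing from the pool, as at AsnRS, was not counted. Why the peaks of ThrRS and AsnRS are absent from the pooled list was not tested.

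**Figure D2:**
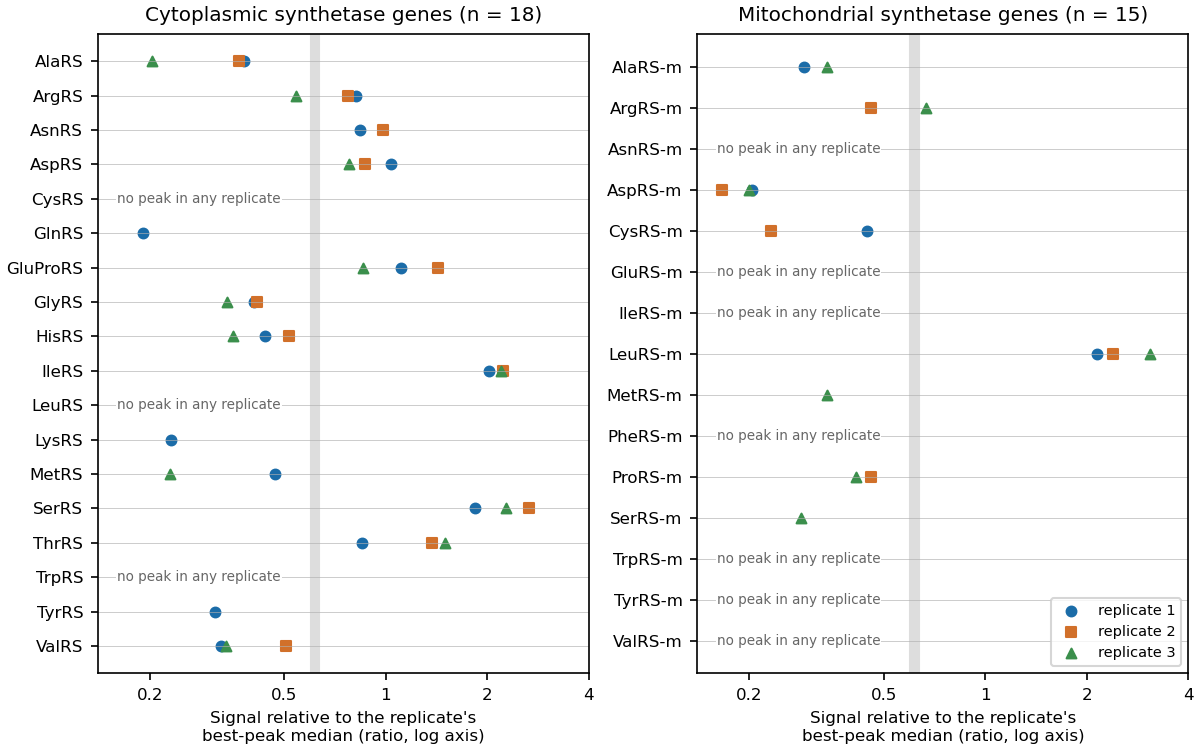
Signal of the strongest summit within 1000 bp of a TSS of each synthetase gene, as a ratio to the median of the replicate's 5048 best peaks (log axis), 1 point per replicate. The grey band, from 0.599 to 0.636, marks the weakest of the best peaks. SerRS, IleRS and LeuRS-m lie at 1.84 or above in all 3 replicates and every other gene at 1.50 or below.

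Weak peaks, below the optimal list, lay at most of the remaining cytoplasmic genes. Most protein-coding genes also had a peak of some rank, since 30.4% of all had none in any replicate. HisRS came closest to the optimal list, at pooled rank 5745, with a summit 842 bp downstream of its start in its own 5' UTR. It stood at 0.440, 0.516 and 0.353 times the median in the replicates. The value of replicate 3 belongs to another summit, 643 bp downstream, and the summit at 842 bp stood at 0.203 there. GlyRS, with a pooled summit 46 bp upstream, stood at 0.406, 0.415 and 0.337, and AlaRS, 201 bp upstream in the 3' UTR of CG13392, at 0.381, 0.367 and 0.202. ValRS had a peak in all 3 replicates, at 0.325, 0.505 and 0.336 times the median, and none in the pool. MetRS had one in replicates 1 and 3 (0.468 and 0.230), and GlnRS, LysRS and TyrRS in replicate 1 alone, at 0.191, 0.231 and 0.312. CysRS, LeuRS and TrpRS had no peak of any rank within 1000 bp in any list. Optimal summits came no nearer than 11310 bp to CysRS, 20005 bp to LeuRS and 15845 bp to TrpRS.

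LeuRS-m was the mitochondrial gene with an optimal summit, and that summit lay far from its start. LeuRS-m (FBgn0027085, chromosome 3L from 4825853 to 4829038, plus strand) loads leucine in the mitochondrion. The peak, from 4824725 to 4825120, had its summit 930 bp upstream, in an intron of Dhc64C, the dynein heavy chain gene, and 764 bp from a start of Dhc64C. The signal was 2.14, 2.39 and 3.08 times the median (2.53 ± 0.486, SD, n = 3), highest in replicate 3. At the LeuRS-m start itself, 25 bp upstream, the pooled list held only a weak peak at rank 19824, 0.194 times the pooled best-peak median. With a window of 500 bp, LeuRS-m was not counted and no mitochondrial gene had an optimal summit.

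The other mitochondrial genes had weak peaks or none. ArgRS-m stood at 0.459 times the median in replicate 2 and at 0.668 in replicate 3, rank 4592, the only mitochondrial gene besides LeuRS-m among the best peaks of any replicate. These summits lay 89 and 309 bp upstream, and the pooled one 102 bp upstream. Replicate 3 also had a weak summit 84 bp upstream, at 0.175 times the median and rank 29148, and replicate 1 had none. ProRS-m was the strongest of the rest in the pool, at rank 6689 and 111 bp upstream, with 0.459 and 0.414 times the median in replicates 2 and 3 and no peak in replicate 1. CysRS-m stood at 0.446 and 0.231 in replicates 1 and 2, and AlaRS-m at 0.290 and 0.340 in replicates 1 and 3. AspRS-m had a peak in all 3 replicates, at 0.203, 0.166 and 0.199, ranks 24779, 27077 and 24834, near the bottom of each list. Their summits, at 16827312, 16827049 and 16827162, were nearest to different starts of the gene, so these values need not come from 1 site. MetRS-m (0.340) and SerRS-m (0.285) had one in replicate 3 alone. AsnRS-m, GluRS-m, IleRS-m, PheRS-m, TrpRS-m, TyrRS-m and ValRS-m had none in any list.

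Counted by replicate, a peak of any rank was found in all 3 replicates for 10 of 18 cytoplasmic and 2 of 15 mitochondrial genes, beside 34.3% of all protein-coding genes. No replicate held one for 3 cytoplasmic and 7 mitochondrial genes, beside 30.4% of all. Among the 12 pairs of symbols that differ only by the suffix, only the cytoplasmic gene had an optimal summit for 4 (arginine, aspartate, isoleucine and serine). Only the mitochondrial gene had one for leucine, and neither for 7, where 18.0% of all protein-coding genes had one. The cytoplasmic gene had a peak in more replicates than its counterpart for 8 amino acids and in fewer for 2, cysteine and leucine. Aspartate was equal with all 3 replicates for each gene, and tryptophan equal with none. These pairs leave out GluProRS, which had an optimal summit and a peak in all 3 replicates. Of its mitochondrial counterparts, GluRS-m had no peak, and ProRS-m had peaks in replicates 2 and 3 and no optimal summit.

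**Figure D3:**
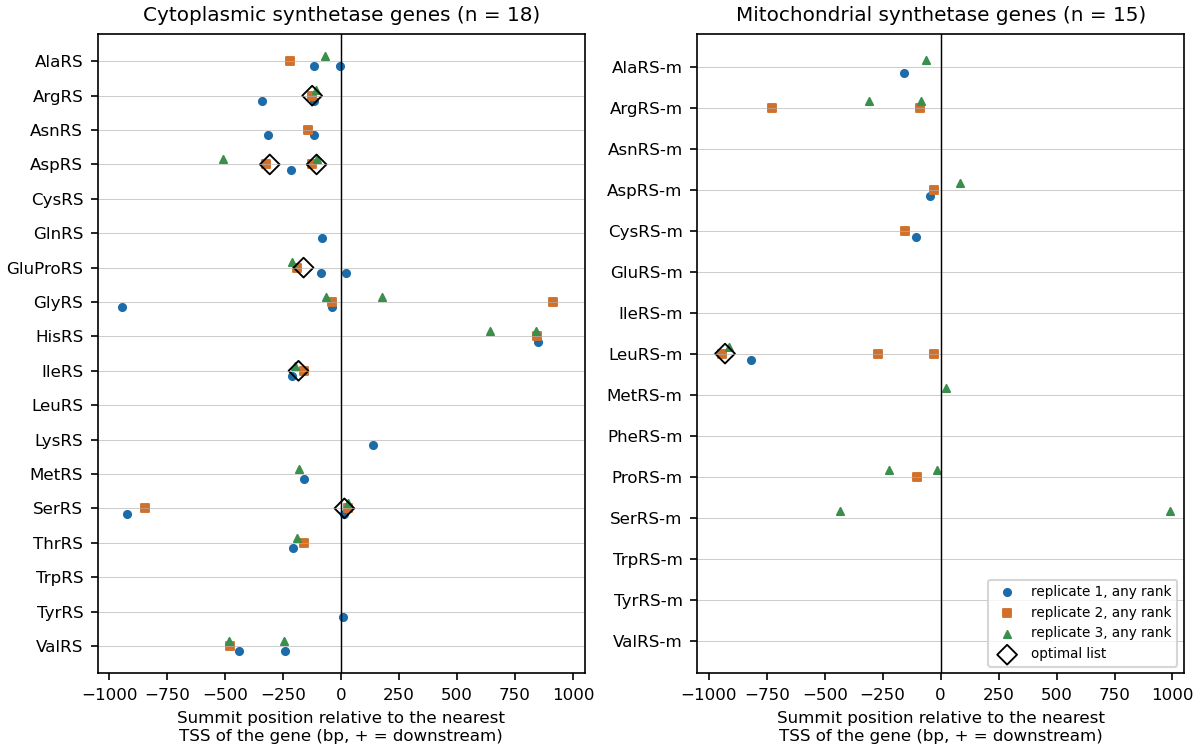
Position of every summit within 1000 bp of a synthetase gene's TSS (bp from the nearest TSS of that gene, negative upstream), by replicate and for the optimal list (open diamonds). Optimal summits of cytoplasmic genes lie from 308 bp upstream to 14 bp downstream, and that of LeuRS-m 930 bp upstream.

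Most cytoplasmic synthetase genes share their promoter with a neighbour, a feature the naming rule did not use. A promoter was called divergent when another coding gene starts upstream on the other strand within 1000 bp. This held for 16 of 18 cytoplasmic genes (88.9%) and 7 of 15 mitochondrial genes (46.7%), beside 36.2% of all protein-coding genes. All 6 genes with an optimal summit were divergent, AspRS both at its 5' end, facing Lfg, and at the internal start, facing Nmda1. Across the genome 29.0% of divergent genes had an optimal summit and 11.8% of the others did. Among divergent genes the cytoplasmic share was 5 of 16 (31.3%) and the mitochondrial 1 of 7 (14.3%), and of the 10 synthetase genes that were not divergent none was counted. The kind of promoter moved with the difference between both classes, and its part in that difference was not tested. Assigned to the nearest start alone, the optimal summits fell to 3 synthetase genes, ArgRS, IleRS and SerRS, beside 13.1% of all genes.

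**Figure D4:**
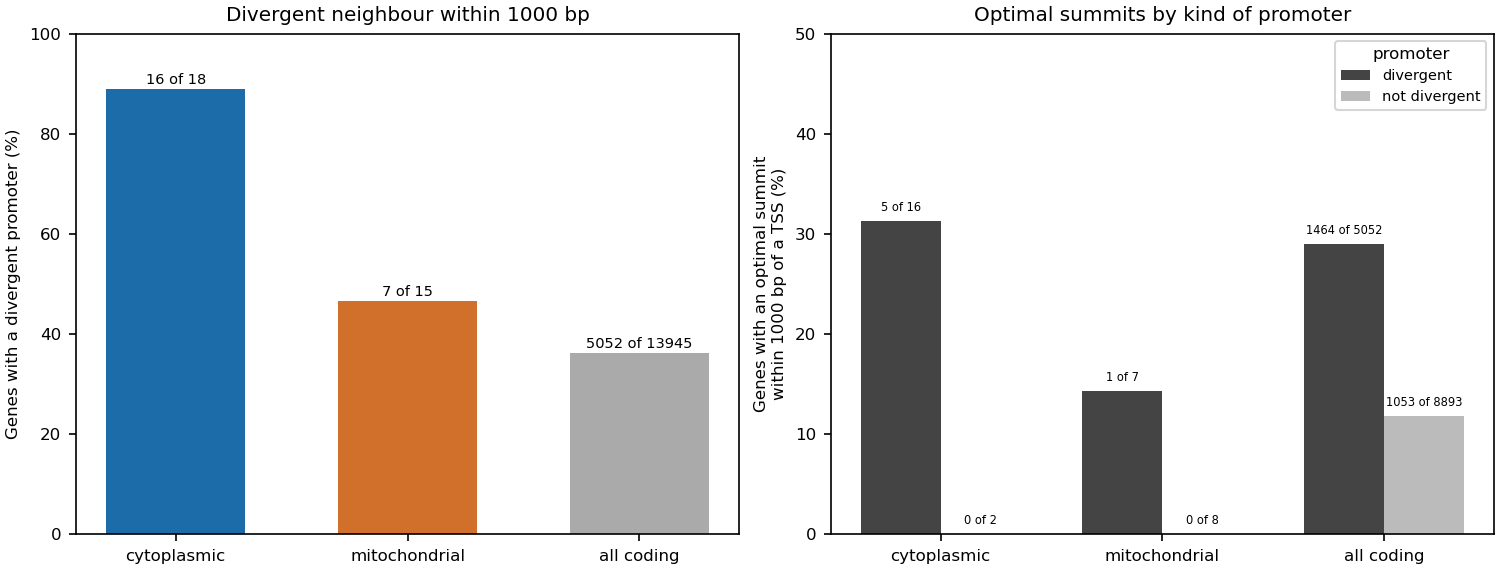
Left, share of genes (%) with a divergent coding neighbour within 1000 bp, 16 of 18 cytoplasmic, 7 of 15 mitochondrial and 5052 of 13945 coding genes. Right, share (%) with an optimal summit by kind of promoter, 5 of 16 divergent cytoplasmic genes, 1 of 7 divergent mitochondrial genes and 1464 of 5052 divergent coding genes, and 0 of 2, 0 of 8 and 1053 of 8893 for the rest.

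The classes were also compared in gene length, number of starts and base composition. The median gene was 3090 bp long for cytoplasmic, 2727 bp for mitochondrial and 2166 bp for all coding genes. Genes with a single annotated start made up 61.1%, 86.7% and 73.5%, so cytoplasmic genes had more starts through which to be counted. The median distance from a start to the nearest optimal summit was 6682 bp, 7348 bp and 8658 bp. The 250 bp upstream of starts were AT-rich, with a median GC content of 35.5% for cytoplasmic, 34.2% for mitochondrial and 37.8% for all coding genes. Windows of 200 bp at the 7 optimal summits of synthetase genes ranged from 26.5% to 38.0% GC, with a median of 30.5%, beside 33.5% for all optimal summits.

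The letters of the TATA box and of the replication element stood upstream of a larger share of cytoplasmic than of mitochondrial genes. TATAAAA was within 250 bp upstream of a start in 11 of 18 cytoplasmic (61.1%), 4 of 15 mitochondrial (26.7%) and 26.2% of all coding genes. TATCGATA was there in AlaRS, ArgRS, AspRS, IleRS and TrpRS, 5 cytoplasmic and no mitochondrial gene, beside 8.91% of all. In the sequences above it lies 27 to 34 bp upstream of the ArgRS start and 35 to 42 bp upstream of the IleRS start, 91 and 142 bp from their summits. GGTCACAC, bound by M1BP, was upstream of AsnRS-m and ProRS-m (5.01% of all genes). The E-box CACGTG was upstream of GlnRS, ThrRS and LeuRS-m (3.74% of all), and TGATGNAA, the response element of ATF4 in mammals, upstream of ThrRS (4.43% of all). Either strand counted, a gene with several starts had several windows, and these counts are descriptions with no test.

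CACTG was chosen after the values were seen, because 7 of the 10 8-mers most frequent at all optimal summits relative to their flanks hold it. The leading one, CACTGAGA, was in 4.62% of 200 bp summit windows and 0.515% of windows 1000 bp to each side. CACTG itself was in 46.4% of summit windows, 30.4% of flanking windows and 4 of the 7 summit windows of synthetase genes, those of ArgRS, GluProRS, IleRS and LeuRS-m. It lay 30 bp from the summit of ArgRS, 62 bp from that of GluProRS, 93 bp from that of IleRS and 65 bp from that of LeuRS-m. Within 250 bp upstream of starts it was in 10 of 18 cytoplasmic genes (55.6%) and 12 of 15 mitochondrial genes (80.0%), beside 44.8% of all coding genes. Of the other motifs, TATAAAA was in 18.0% of all summit windows and 9.20% of flanking windows, and TATCGATA in 1.43% and 0.545%. CACGTG was in 1.68% and 2.39%, GGTCACAC in 1.03% and 0.535%, and TGATGNAA in 3.07% and 2.78%. Among synthetase genes, TATCGATA was in summit windows of ArgRS and AspRS, and TATAAAA in those of LeuRS-m and SerRS.

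Genes that act beside the synthetases, in handing on charged transfer RNA, sensing its lack or scaffolding the enzymes, were described from a separate list. An optimal summit lay near 5 of 21 related genes (23.8%), beside 18.0% of all. Among 9 elongation factors there were 3, of which eEF1gamma, a subunit of the exchange complex of the factor that brings transfer RNA to the ribosome, was strongest, at 2.16, 1.88 and 2.67 times the median (2.24 ± 0.401, SD, n = 3) and 22 bp from its start. eEF1alpha1, that factor itself, stood at 0.630, 0.848 and 0.832 (0.770 ± 0.121), outside the best peaks in replicate 1, at rank 5117. mEFTu1, its mitochondrial counterpart, stood at 1.00, 0.589 and 0.419 (0.671 ± 0.302), with replicate 1 well above the others. In replicates 2 and 3, at ranks 5157 and 8843, mEFTu1 fell outside the best peaks. crc, which encodes the fly counterpart of ATF4, a transcription factor of the response to amino acid shortage, stood at 1.28, 1.49 and 2.13 (1.63 ± 0.442). GatA, a subunit of the amidotransferase that makes glutaminyl-tRNA in mitochondria, stood at 1.56, 1.01 and 1.25 (1.27 ± 0.278). None lay near alpha-PheRS, beta-PheRS and Slimp, near the scaffold genes AIMP1, AIMP2 and AIMP3, or near Dtd, GatB, GatC and Gcn2.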

How the data were processed

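Peak lists on dm6 were used as the authors deposited them: each replicate has a list, called against control alignments, beside a pooled list from all 3 replicates and the optimal list thresholded by irreproducible discovery rate, per the deposited file lists. No source used here names the aligner or peak caller. The authors' signal per peak has no stated scale and differs between lists. The −log10 value of each peak, a q-value by the layout of the deposited lists, was used for no result. The dm3 lists were not used.

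Gene models were those of Ensembl release 115 on the chromosome arms 2L, 2R, 3L, 3R, 4 and X, and sequence came from NCBI's FASTA of dm6. No 2 replicates shared more than 1 identical interval, so they were counted as separate samples, and the labels call them biological replicates. The design has 1 group, so no test was run, and means are given with the SD over replicates.

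Members, lists and motifs were chosen with earlier results of these data known. Every synthetase gene is named, and of 23 related genes those with an optimal summit. Mtfmt and mEFG2 were not matched by symbol and were not analysed here. The assignment of summits was tested on simulated positions. Python 3.11.15, numpy 2.4.6 and pandas 2.3.3 were used.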

Additional observations from a re-analysis of the deposited data

How the results depend on the processing

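The cytoplasmic genes kept the larger share under every alternative that left any synthetase gene, and the counts moved with the number of peaks and the width of the window. With a window of 5000 bp 11 genes were counted (8 cytoplasmic, 3 mitochondrial, 36.7% of all genes), and with every pooled peak 13 (9 and 4, 47.9%). Summits assigned to the nearest gene alone left 3 (3 and 0, 13.1% of all genes), and peaks found in the 2500 best of all 3 replicates left 3 (2 and 1, 7.41% of all genes), where the difference between the classes was 4.44 percentage points against 21.1. The 500 strongest optimal peaks held 0 synthetase genes of either class (difference 0), while 2.98% of all genes had one. A window of 500 bp left 5 cytoplasmic and 0 mitochondrial genes, with 14.9% of all genes. The 5' end of each gene as its only start left 4 cytoplasmic genes and 1 mitochondrial gene, with 16.0% of all genes. There the difference between the classes was 15.6 percentage points. With the 2500 best peaks of a replicate, 5, 5 and 4 genes had a summit in replicates 1, 2 and 3, against 8, 8 and 7, where all genes stood at 10.1%, 10.4% and 9.97%. With the 10000 best it was 12, 14 and 9, where all genes stood at 29.8%, 28.8% and 29.1%.

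Leaving out each replicate in turn gave 5 to 6 genes, 4 to 5 of them cytoplasmic and 1 mitochondrial, a difference of 15.6 to 21.1 percentage points, with 13.4% to 14.1% of all genes, since ArgRS was lost where replicate 3 had to support its peak. For these counts the optimal list still rested on all 3. Division by the median of all 30000 peaks changes the unit of the signal and put the 7 genes with an optimal summit or a best peak in all 3 replicates between 2.60 and 9.22. No paired analysis was possible because there is 1 group. Depth is unknown, so a gene without a peak cannot be told from one below the lists' limit.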

Other observations

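In mammals 8 of the cytoplasmic synthetases sit in a multi-synthetase complex held by the AIMP scaffold proteins. Grouped by their fly symbols after the values were seen, these were ArgRS, AspRS, GlnRS, GluProRS, IleRS, LeuRS, LysRS and MetRS. Optimal summits lay near 4 of these 8 genes and near 1 of the other 10 cytoplasmic genes, SerRS, beside 18.0% of all coding genes. By best peaks of all 3 replicates the counts were 3 of 8 and 2 of 10, beside 12.8% of all coding genes, with ArgRS lost from the first and ThrRS gained by the second. By the fold of their catalytic domain, 2 of 9 class I and 2 of 8 class II cytoplasmic genes had an optimal summit, again beside 18.0%, with GluProRS, which belongs to both, left out. These groupings were not tested.

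Kept by rank, the 1000 strongest pooled peaks reached 2 cytoplasmic genes and 1 mitochondrial gene, with 5.06% of all coding genes. The 4000 strongest reached the 5 and 1 of the optimal list, with 15.0%. The 10000 strongest reached 7 and 4, with 28.4% of all coding genes.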
